A study of Homo sapiens with 6 samples.

Results

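The 37 genes described here carry glucose into the cell, break it down to pyruvate and lactate, and pass pyruvate to the mitochondrion, and 4 of them belong to the glycogen and pentose phosphate branches. They were chosen by name from pathway knowledge, with earlier results of these data known, so their share of changed genes is a description and no independent evidence. Of these members, 36 reached the minimum for a measured gene, an average of 50 counts a library, as did 11909 of 52992 genes in the summed tables. The member below that minimum was ALDOC, the brain-type aldolase, with a mean count of 45.

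The cells were J82, a human bladder cancer line. A tet-ZFP36L1 line, which overexpresses ZFP36L1 when doxycycline is given, was set against a tet-control line, and both were sampled without doxycycline (0 h) and after 6 and 24 h of doxycycline at 1 µg/mL. What the control line carries, the promoter used, and whether a line is 1 clone or a pool are not given in the sources used here. Each line and time had 1 library, so the comparisons at each time were not tested and no p-value is given.

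Glycolysis turns glucose into pyruvate through a chain of cytosolic enzymes, many of which exist as paralogs encoded by separate genes. Tumour cells often use particular forms of them (the transporter GLUT1, hexokinase HK2, the PKM2 form of pyruvate kinase, lactate dehydrogenase LDHA and the lactate exporter MCT4), and HIF1A and MYC are known to raise transcription of many of these genes. Pyruvate leaves the cell as lactate or enters mitochondria, where the pyruvate dehydrogenase complex makes acetyl-CoA from it. ZFP36L1 belongs to the tristetraprolin family of RNA-binding proteins, known for docking on AU-rich stretches of the 3′ UTR and recruiting the enzymes that shorten the poly(A) tail.

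The libraries held 19605308 to 20245037 counts summed over genes. ZFP36L1 itself (chr14:68787660-68796253, GRCh38, minus strand) was at 220.2, 3127 and 3131 CPM (counts relative to the scaled library size) without doxycycline and after 6 and 24 h in tet-ZFP36L1, against 234, 223 and 206 CPM in tet-control, so the induced libraries are those so labelled. Epithelial markers were partly present: 4 of 13 were measured (KRT7, KRT8, KRT18 and EPCAM), UPK2 and UPK3A had a count of 0 in every library, and the summed level of the list was 1134 to 1622 CPM in tet-ZFP36L1 and 683 to 862 CPM in tet-control. Mesenchymal markers were measured for 5 of 5, with summed levels of 3610.0 to 13682 CPM in tet-ZFP36L1 and 1211 to 1653 CPM in tet-control. That list was highest in tet-ZFP36L1 at 6 h and lowest of that line at 24 h, mostly through FN1, and its part in the results below was not tested. None of 6 blood and immune markers and none of 2 endothelial markers in the table reached the count minimum. The tet-ZFP36L1 library at 24 h held more genes with at least 10 counts than the others, 15695 against 14515 to 14956 in the other 5 libraries.

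Most of the pathway stayed within 1.5-fold at 6 h of induction, and a larger group of it was lower at 24 h. The measure used throughout is the induction difference: the log2 change since 0 h of the tet-ZFP36L1 line, less the same change of the tet-control line. A negative value thus means a lower level relative to 0 h than in the control line. At 6 h, 5 members were at least 1.5-fold lower (SLC2A1, HK2, PFKP, ENO2 and DLAT), or 13.9% of the members. Of all measured genes 14.3% were lower, so at 1.5-fold the share at 6 h was that of genes at large. No member was at least 1.5-fold higher at 6 h, where 7.02% of all measured genes were. Of the 2382 most abundant genes, which include 20 of the members, 1.72% were higher at 6 h and 2.98% at 24 h. At 24 h, 11 members were lower, or 30.6%, where 17.4% of all measured genes were: the same 5 and ALDOA, GAPDH, PGK1, ENO1, LDHA and SLC16A3. PFKFB2 was the 1 member higher at 24 h, where 13.9% of all measured genes were. At 2-fold, the same 5 members were lower at 6 h, or 13.9%, where 4.69% of all measured genes were. At 24 h 9 members were lower (6.51% of all measured genes), and 0 were higher at either time (1.60% and 4.68%). The median over the 36 members was 0.06 at 6 h and -0.23 at 24 h on the log2 scale, against -0.01 and -0.02 over all measured genes. The balance of the background depended on the scaling: of all genes past 1.5-fold at 24 h, 55.7% were lower with TMM scaling, 36.8% with plain CPM and 41.4% with deposited TPM, while 10 to 11 members were lower under each. In bulk RNA such values cannot tell fewer cells of a kind from less RNA per cell.

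**Figure D1:**
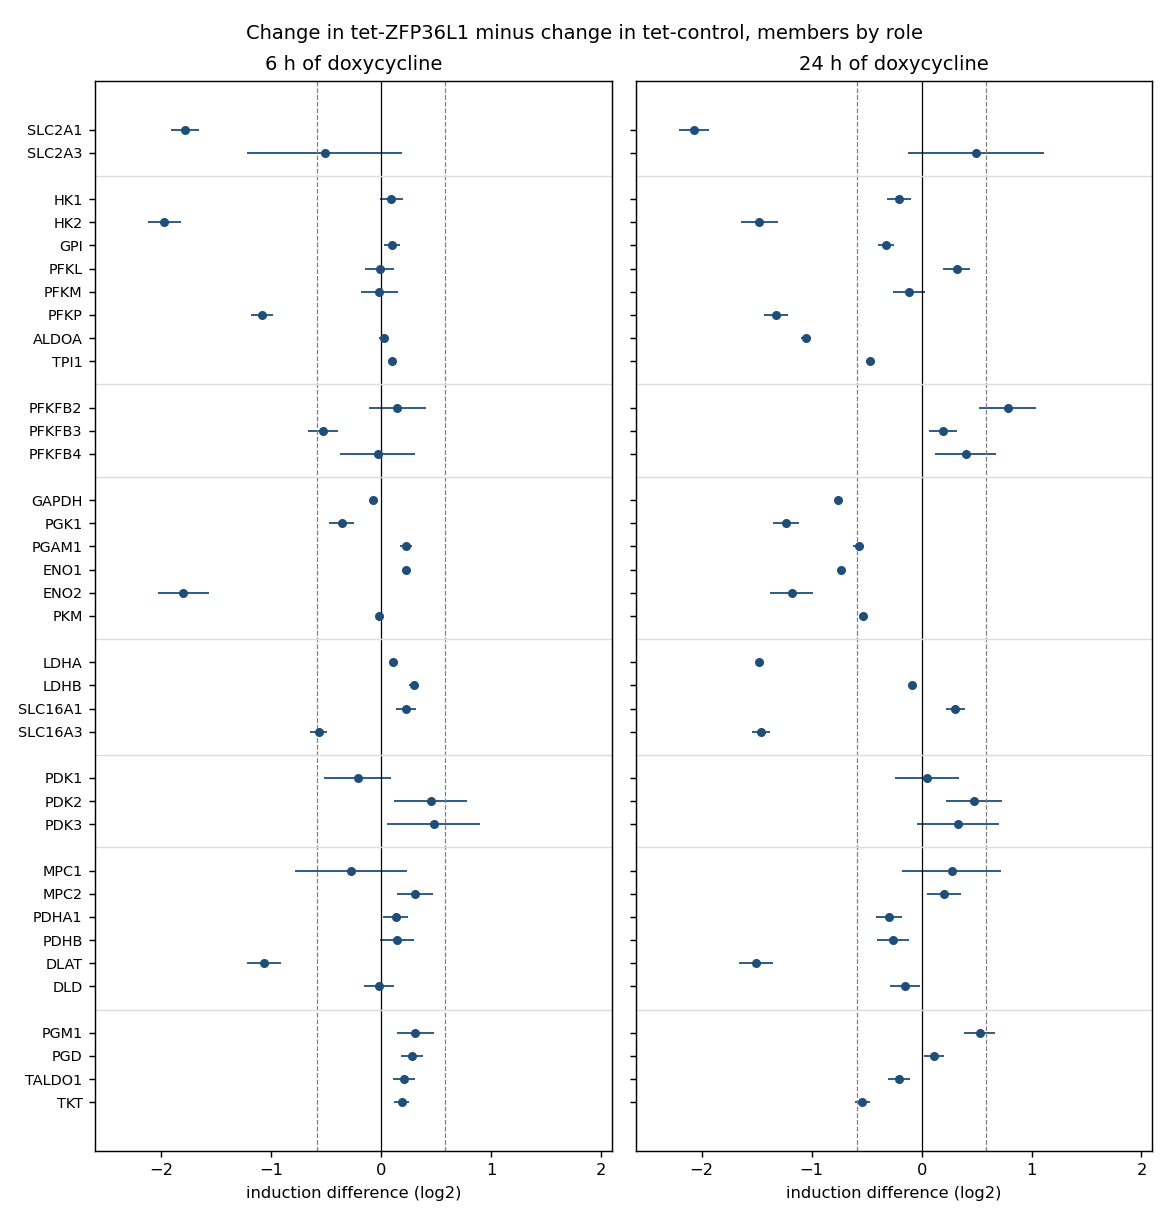
Induction difference (log2, horizontal axis) of the 36 measured members at 6 h (left) and 24 h (right), grouped by role, with 95% counting intervals as bars and dashed lines at 1.5-fold. At 6 h 5 points lie beyond the left dashed line, and at 24 h 11 do.

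Against 0 h within tet-ZFP36L1 alone, 10 members lay 1.5-fold or more below at 6 h and 11 at 24 h, where 15.6% and 17.1% of all measured genes were. These include all 5 members with a lower induction difference at 6 h and all 11 at 24 h. The change in tet-ZFP36L1 is part of the induction difference, and of all measured genes with a lower difference 61.8% at 6 h and 82.2% at 24 h were lower in that line too. Against tet-control at the same time, 5 members lay 1.5-fold or more below at 6 h and 13 at 24 h, where 15.3% and 20.3% of all measured genes were. All 3 conditions held for HK2, PFKP, ENO2 and DLAT at 6 h, and at 24 h for all of the 11 except SLC2A1 and GAPDH. Of all measured genes with a lower difference, 40.5% at 6 h and 60.9% at 24 h met all 3. The intervals given below in brackets are 95% intervals from the counts, and they cover counting error and not the spread between cultures.

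Of the 5 genes that were lower at 6 h, 4 have the 7-base AU-rich word TATTTAT in the 3′ UTR of their most abundant coding transcript (GENCODE 29, sense strand). The sites below are shown because they lie in genes that were lower at 6 or 24 h. Capitals mark the word, the letters are the DNA form of the transcript read 5′ to 3′, and for ENO2 the first of 4 overlapping copies and for DLAT 2 of 5 copies are given.
SLC2A1: agatgcaagaTATTTATatatattttt
HK2, site 1: gtacgtaatgTATTTATatgttaattt
HK2, site 2: ggtttttgtaTATTTATcaaacttgtg
ENO2: ggctttagtgTATTTATttatttattt
DLAT, site 1: cttaacaagaTATTTATatgttattaa
DLAT, site 3: tttgtgtggaTATTTATttaaacaaat
SLC16A3: caacgcttgcTATTTATtttacaaact
PGK1: agagtgcataTATTTATattttgcctg

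The word begins 750 bases after the stop codon in the 1666-base 3′ UTR of SLC2A1, 871 and 1758 bases after it in the 2418-base 3′ UTR of HK2, and 489 bases after it in the 896-base 3′ UTR of ENO2. SLC16A3 and PGK1, which carry the last pair of sites, were lower at 24 h and not at 6 h. In all, 10 of 36 members held the word (27.8%), against 29.1% of 10898 measured genes (3′ UTRs under 50 bases were not searched). It was present in 4 of 5 members lower at 6 h (80.0%), in 2 of 6 lower at 24 h and not at 6 h (33.3%) and in 4 of 25 lower at neither time (16.0%). The same shares over all measured genes were 56.7%, 37.96% and 22.9%. The other 4 members with the word were HK1, PFKM, PFKFB3 and SLC2A3, whose differences at 6 h were 0.09, -0.01, -0.53 and -0.51 and lay within 1.5-fold. PFKP was lower at both times and its 223-base 3′ UTR held no copy, nor did those of LDHA, ALDOA, GAPDH and ENO1.

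Members with the word had a median induction difference of -0.55 at 6 h and -1.21 at 24 h, and members without it 0.14 and -0.18. Over all measured genes the medians were -0.29 and -0.28 with the word and 0.09 and 0.05 without it. Members with the word also had longer 3′ UTRs, with a median of 1760.5 bases against 424.5 bases without it, and the part of length was not tested. Transcripts that hold the word made up 99.8% of the TPM of HK2, 99.5% for DLAT, 94.1% for SLC16A3, 80.0% for ENO2 and 66.5% for SLC2A1, and 5.50% for PGK1. These shares are not limited to coding transcripts. For DLAT the coding transcript searched held 20.1% of the TPM. A transcript annotated as a target of nonsense-mediated decay held 57.8% to 69.6%. Of the 36 transcripts searched, 30 have the same length in the deposited tables, and that of SLC2A1 does not.

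**Figure D2:**
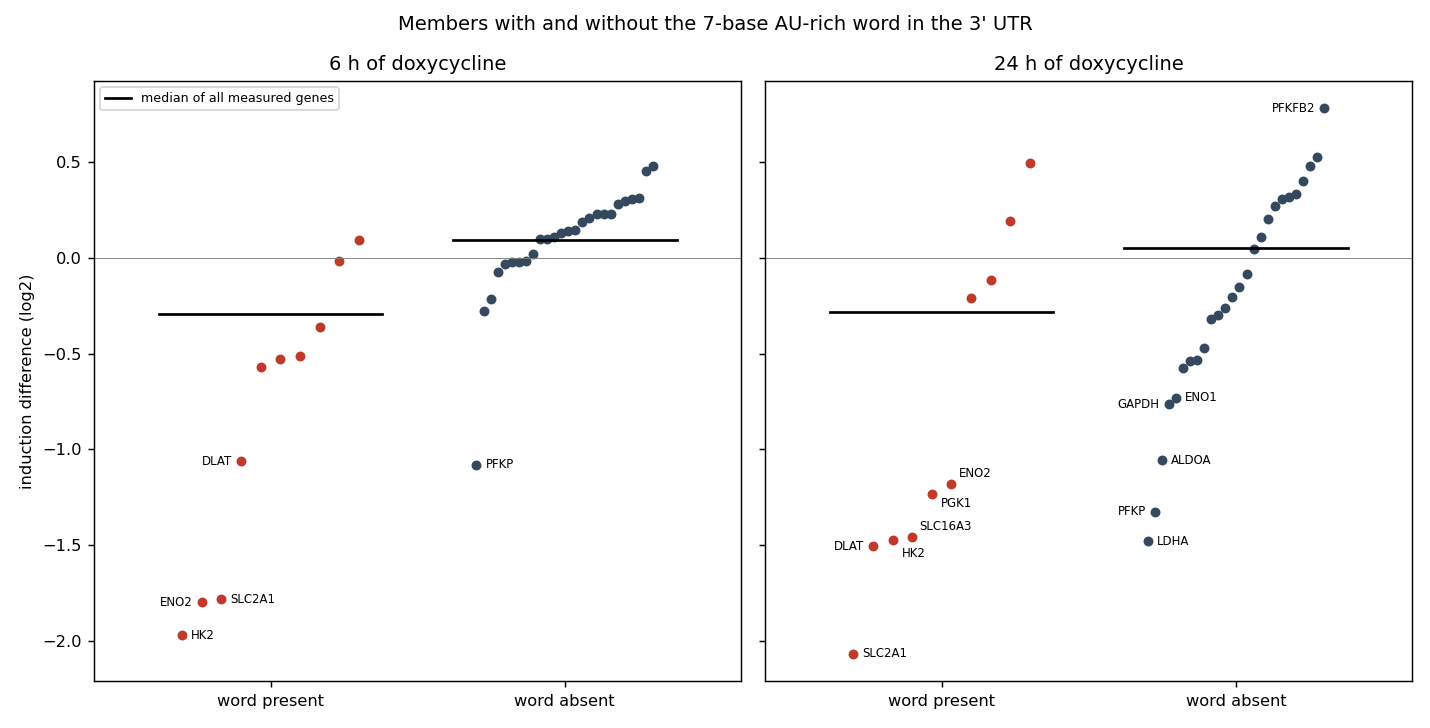
Induction difference (log2) of the 36 measured members at 6 h (left) and 24 h (right), for the 10 members with TATTTAT in the 3′ UTR and the 26 without it. Points are single genes in rising order, names mark those past 1.5-fold, and black lines are the medians over all measured genes with and without the word; the 4 lowest members with the word at 6 h are HK2, ENO2, SLC2A1 and DLAT.

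Glucose entry was among the largest differences. SLC2A1 (chr1:42925375-42959176) encodes GLUT1, the main basal glucose transporter of most cells, and had 231, 82.7 and 61.2 CPM in tet-ZFP36L1, against 70.8, 87.7 and 79.2 CPM in tet-control. Levels are given here and below in the order 0, 6 and 24 h, and differences in the order 6 and 24 h. The high value is that of uninduced tet-ZFP36L1, and under doxycycline both lines had similar levels. The induction difference was -1.78 (-1.91 to -1.65) at 6 h and -2.07 (-2.20 to -1.93) at 24 h. Without doxycycline the lines already differed by 1.70 (1.61 to 1.78) on the log2 scale, and at 6 and 24 h of doxycycline tet-ZFP36L1 minus tet-control was -0.08 and -0.37. SLC2A3, which encodes the high-affinity transporter GLUT3, had counts of 211, 135 and 191 in tet-ZFP36L1 against 10, 9 and 2 in tet-control, so that every tet-ZFP36L1 library lay above every control library. Its induction difference was -0.51 (-1.22 to 0.19) at 6 h and 0.50 (-0.12 to 1.11) at 24 h, and both intervals hold 0. Of its 31-base words 39.3% are shared with other genes, and its 3 named pseudogenes together had a mean count of 92.5 against 93 for SLC2A3. Its level is therefore uncertain.

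Among the upper steps, HK2 and PFKP were lower at both times while their paralogs HK1, PFKL and PFKM stayed within 1.5-fold. HK2 (chr2:74833981-74893359), the inducible hexokinase that traps glucose as glucose 6-phosphate, had 78.0, 46.9 and 30.05 CPM in tet-ZFP36L1, against 60.3, 143 and 65.3 CPM in tet-control. Its 6 h value in tet-control was the highest of the 6 libraries, so the difference of -1.97 (-2.12 to -1.82) at 6 h joined a change of -0.73 in tet-ZFP36L1 to one of 1.24 in tet-control. At 24 h the control line was back near its start, and the difference was -1.48 (-1.65 to -1.30). HK1, the constitutive hexokinase, had 140.1, 148 and 112 CPM in tet-ZFP36L1 and 156, 155 and 144 CPM in tet-control, with differences of 0.09 and -0.21.

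PFKP (chr10:3066333-3137712) encodes the platelet form of phosphofructokinase, the enzyme of the committed step. It had 173, 90.9 and 63.9 CPM in tet-ZFP36L1, against 225, 251 and 209 CPM in tet-control, so that every control library lay above every tet-ZFP36L1 library. The difference was -1.08 (-1.18 to -0.98) at 6 h and -1.33 (-1.43 to -1.22) at 24 h, and with deposited TPM in place of scaled counts the 6 h value was -0.66. PFKL, the liver form, had 93.8, 84.1 and 108 CPM in tet-ZFP36L1 and 104, 94.0 and 95.9 CPM in tet-control, with differences of -0.01 and 0.32. PFKM, the muscle form, had 75.9, 50.3 and 70.1 CPM in tet-ZFP36L1 and 69.7, 46.7 and 69.6 CPM in tet-control. It gave -0.01 and -0.11, being lower at 6 h in both lines (by 0.59 in tet-ZFP36L1 and by 0.57 in tet-control).

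Of the next steps, ALDOA was lower at 24 h and not at 6 h. ALDOA (chr16:30064164-30070457), which cleaves fructose 1,6-bisphosphate, had 836, 872 and 494 CPM in tet-ZFP36L1, against 839, 861 and 1029.5 CPM in tet-control. The 5 other libraries lay at 836 CPM or above and the 24 h induced library lay apart below them. Its difference was 0.02 (-0.02 to 0.07) at 6 h and -1.05 (-1.10 to -1.01) at 24 h. GPI, which isomerises glucose 6-phosphate, gave 0.10 and -0.32, and TPI1, which interconverts the triose phosphates, gave 0.10 and -0.47, all within 1.5-fold. ALDOC, below the count minimum, had 39, 39 and 73 counts in tet-ZFP36L1 and 35, 44 and 40 counts in tet-control. ALDOA shares 81.7% of its 31-base words with 32 other genes. The one with the most matches, AC093512.2, had a mean count of 133.5 against 16330 for ALDOA. The counts of the others were not compared, so how far sharing affects ALDOA was not tested.

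The 3 enzymes that make or degrade fructose 2,6-bisphosphate, the activator of phosphofructokinase, did not follow PFKP. PFKFB2 (chr1:207034366-207081024), the heart form, had 24.4, 33.0 and 42.4 CPM in tet-ZFP36L1, against 18.0, 21.99 and 18.0 CPM in tet-control. Its difference was 0.15 (-0.11 to 0.41) at 6 h and 0.78 (0.53 to 1.04) at 24 h, which made it the 1 member past 1.5-fold upward, and with deposited TPM it was 0.55 and no longer past it. PFKFB3, the inducible form with high kinase activity, had 72.4, 50.2 and 62.4 CPM in tet-ZFP36L1, against 200.4, 200.8 and 151 CPM in tet-control. The lines thus differed before induction (-1.46, -1.55 to -1.38), and the induction difference was -0.53 at 6 h and 0.19 at 24 h. PFKFB4 had 15.2, 8.71 and 19.9 CPM in tet-ZFP36L1 and 21.6, 12.7 and 21.2 CPM in tet-control, and gave -0.03 and 0.40.

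In lower glycolysis all 6 members had a negative difference at 24 h, with a median of -0.75, and 4 of them were past 1.5-fold. At 6 h their median was -0.05 and ENO2 alone was past it. ENO2 (chr12:6913745-6923698), the neuronal enolase, had 54.4, 13.997 and 23.4 CPM in tet-ZFP36L1, against 45.5, 41.8 and 45.0 CPM in tet-control. The 2 induced libraries were the lowest of the 6, and the one at 24 h lay above the one at 6 h. The difference was -1.80 (-2.03 to -1.57) at 6 h and -1.18 (-1.38 to -0.98) at 24 h. ENO1 (chr1:8861000-8879250), the general enolase, had 2267, 2554 and 1482 CPM in tet-ZFP36L1 and 2780.2, 2673 and 3013 CPM in tet-control, and gave 0.23 at 6 h and -0.73 (-0.76 to -0.70) at 24 h.

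PGK1 (chrX:77910739-78129296) makes the first ATP of the pathway. It had 138, 109 and 61.9 CPM in tet-ZFP36L1, against 137, 138 and 145 CPM in tet-control, with differences of -0.36 (-0.47 to -0.25) and -1.23 (-1.35 to -1.12). Its matched reads lay mostly on a 702-base processed transcript, which held 90.4% to 94.3% of its TPM in the 6 libraries, so its level is not compared with that of other genes. The difference may therefore not describe its main coding transcript, and over the matched coding transcripts alone it was -0.25 and -1.16. GAPDH (chr12:6533927-6538374), which oxidises glyceraldehyde 3-phosphate, had 5052, 4632 and 3206 CPM in tet-ZFP36L1, against 4441, 4283 and 4786 CPM in tet-control. It gave -0.07 at 6 h and -0.76 (-0.78 to -0.74) at 24 h, and it is often used as a reference for other genes. PGAM1, the mutase, gave 0.23 and -0.57, within 1.5-fold at both times.

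PKM, which encodes pyruvate kinase, had 3180.4, 3225 and 2549 CPM in tet-ZFP36L1, against 2152, 2211 and 2498 CPM in tet-control. Its difference was -0.02 at 6 h and -0.53 at 24 h, and the lines differed by 0.56 at 0 h, the induced line's start being higher. Transcripts with the exon of the PKM2 form (chr15:72202454-72202620) held 85.6%, 85.3% and 87.4% of the gene's TPM at 0, 6 and 24 h in tet-ZFP36L1 and 84.3%, 72.8% and 82.3% in tet-control. Those with the exon of the PKM1 form (chr15:72203022-72203188) held 1.44%, 1.43% and 1.16% in tet-ZFP36L1 and 1.78%, 1.70% and 1.61% in tet-control. The rest lay on transcripts with neither or both of these exons, at 12.9%, 13.2% and 11.4% in tet-ZFP36L1 and 13.9%, 25.5% and 16.1% in tet-control. The PKM2 form was therefore the main one in every library.

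**Figure D3:**
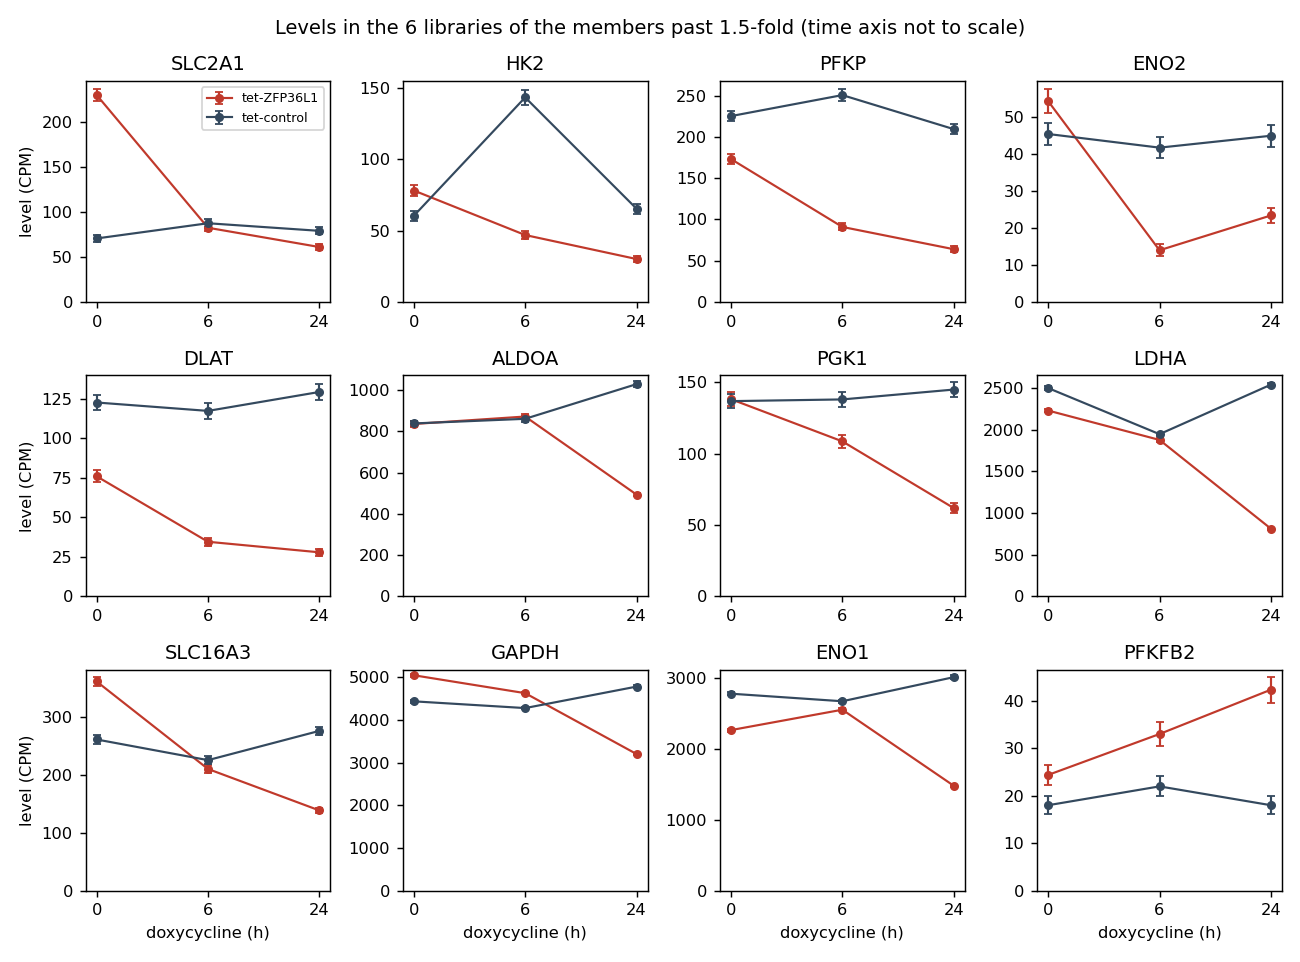
Level (CPM, vertical axis from 0) of the 12 members past 1.5-fold at either time, in tet-ZFP36L1 (red) and tet-control (dark blue) at 0, 6 and 24 h of doxycycline, with 95% counting intervals as bars. SLC2A1 is high in uninduced tet-ZFP36L1 alone, HK2 peaks in tet-control at 6 h, and LDHA is at 812 CPM in tet-ZFP36L1 at 24 h against 2541 CPM in tet-control.

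Of the 4 lactate genes, LDHA and the exporter SLC16A3 were lower at 24 h and their paralogs LDHB and SLC16A1 were not. LDHA (chr11:18394388-18408425), the dehydrogenase subunit that favours lactate formation, had 2229.5, 1877 and 812 CPM in tet-ZFP36L1, against 2499, 1946 and 2541 CPM in tet-control. Both lines were lower at 6 h, by 0.25 and 0.36, and at 24 h tet-control was back at its start while tet-ZFP36L1 was lower still. The difference was 0.11 (0.08 to 0.14) at 6 h and -1.48 (-1.51 to -1.45) at 24 h. LDHB, the heart-type subunit, had 991, 1006 and 889 CPM in tet-ZFP36L1 and 1374, 1136 and 1305 CPM in tet-control, and gave 0.30 and -0.08.

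SLC16A3 (chr17:82228397-82261129) encodes MCT4, the low-affinity exporter of glycolytic cells, and had 362, 211 and 139 CPM in tet-ZFP36L1, against 262, 226 and 277 CPM in tet-control. Its difference of -0.57 (-0.65 to -0.49) at 6 h lay just inside 1.5-fold, and at 24 h it was -1.46 (-1.54 to -1.38). SLC16A1, which encodes MCT1, had 202, 219.5 and 236 CPM in tet-ZFP36L1 and 201, 186 and 190.2 CPM in tet-control, with differences of 0.23 and 0.31. It was the 1 lactate gene whose difference was positive at both times.

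The shares within paralog pairs are given in TPM, which is per length and is summed here over all transcripts of a gene. Short transcripts with few counts can hold much of such a sum. A 425-base transcript held 22.3%, 28.5% and 1.1e-07% of the TPM of PFKP at 0, 6 and 24 h in tet-ZFP36L1. In tet-control it held 22.4%, 26.0% and 15.6%, and its part in the shares below was not tested. PFKP made up 71.4%, 68.0% and 41.4% of the summed TPM of PFKP and PFKL at 0, 6 and 24 h in tet-ZFP36L1, against 76.0%, 78.9% and 74.6% in tet-control. For LDHA in LDHA and LDHB the shares were 63.1%, 58.3% and 41.0% in tet-ZFP36L1 and 57.7%, 57.1% and 59.0% in tet-control. SLC16A3 held 73.2%, 61.3% and 47.8% of its pair with SLC16A1 in tet-ZFP36L1, against 66.9%, 65.4% and 68.2% in tet-control. By these sums the form named first was the majority in all 3 pairs in every library except induced tet-ZFP36L1 at 24 h. In that library the main coding transcripts of SLC16A3 had 23.2 and 69.8 TPM, and that of SLC16A1 had 84.2 TPM. A 452-base processed transcript held 25.5% of the TPM of SLC16A1 there, so the order of this pair depends on the transcripts counted. HK2 was the minority beside HK1 throughout, with 22.7%, 15.4% and 13.3% in tet-ZFP36L1 and 17.7%, 33.1% and 19.9% in tet-control. ENO2 was 1.95%, 0.517% and 1.29% of the enolase pair in tet-ZFP36L1 and 1.22%, 1.38% and 1.24% in tet-control.

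**Figure D4:**
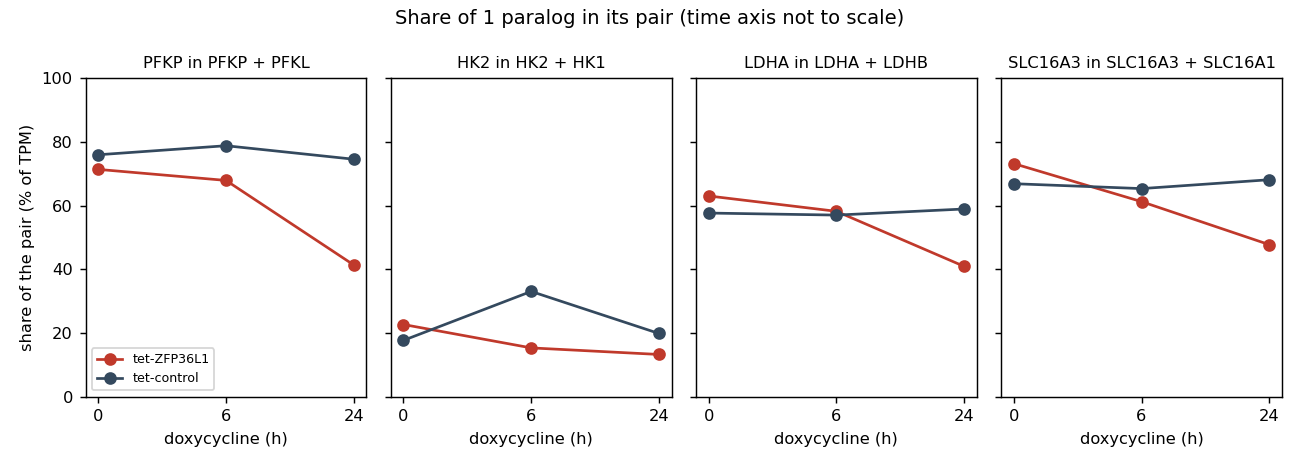
Share of 1 paralog in the summed TPM of its pair (percent, vertical axis 0 to 100) at 0, 6 and 24 h of doxycycline, in tet-ZFP36L1 (red) and tet-control (dark blue), 1 library per point. At 24 h the shares of PFKP, LDHA and SLC16A3 in tet-ZFP36L1 are 41.4%, 41.0% and 47.8%, against 74.6%, 59.0% and 68.2% in tet-control.

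At the entry of pyruvate into mitochondria, DLAT was past 1.5-fold at both times and its partners were within it. DLAT (chr11:112024814-112064390), the acetyltransferase core of the pyruvate dehydrogenase complex, had 75.9, 34.5 and 27.9 CPM in tet-ZFP36L1, against 123, 117 and 129 CPM in tet-control. All 3 control libraries lay above all tet-ZFP36L1 libraries, and the lines differed by -0.69 (-0.78 to -0.60) at 0 h. The induction difference was -1.06 (-1.22 to -0.91) at 6 h and -1.51 (-1.66 to -1.35) at 24 h. Most of its TPM, 57.8% to 69.6% in the 6 libraries, was assigned to a transcript annotated as a target of nonsense-mediated decay. The E1 subunits PDHA1 and PDHB gave 0.13 and 0.14 at 6 h and -0.30 and -0.26 at 24 h. DLD, the E3 subunit that this complex shares with others, gave -0.02 and -0.15.

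MPC1 and MPC2, which together form the mitochondrial pyruvate carrier, gave -0.28 and 0.31 at 6 h and 0.27 and 0.20 at 24 h, and for the low-count MPC1 both intervals hold 0. The kinases PDK1, PDK2 and PDK3, which switch the dehydrogenase complex off, gave -0.21, 0.45 and 0.48 at 6 h and 0.05, 0.48 and 0.33 at 24 h. None of them passed 1.5-fold. PDK1 had 18.8, 16.2 and 18.9 CPM in tet-ZFP36L1 and 15.9, 15.998 and 15.5 CPM in tet-control. PDK2 had 23.6, 14.2 and 35.9 CPM in tet-ZFP36L1 and 18.5, 7.97 and 20.1 CPM in tet-control, low at 6 h in both lines. PDK3 had 9.77, 7.72 and 11.4 CPM in tet-ZFP36L1 and 10.6, 5.89 and 9.72 CPM in tet-control. PDK2 and PDK3 were 2 of 4 members that were at least 1.5-fold lower in tet-control at 6 h, the others being PFKFB4 and PGM1, where 7.73% of all measured genes were lower. HK2 was the 1 member higher there, where 7.46% of all measured genes were. By 24 h, 1 member (SLC2A3) was lower in tet-control, where 1.92% of all measured genes were, and 0 were higher, where 1.60% of all measured genes were.

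The branch genes stayed within 1.5-fold. PGM1, which links glucose 6-phosphate to glycogen, gave 0.31 and 0.53. PGD, the second dehydrogenase of the pentose phosphate pathway, gave 0.28 and 0.11, and TALDO1 and TKT of its non-oxidative part gave 0.21 and 0.19 at 6 h and -0.20 and -0.54 at 24 h. TKT, the transketolase, was lower in tet-ZFP36L1 than in tet-control before induction by 0.68 on the log2 scale. At 0 h, 5 members were at least 1.5-fold apart between the lines, where 18.0% of all measured genes were: PFKFB3, DLAT and TKT lower in tet-ZFP36L1, and SLC2A1 and SLC2A3 higher.

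The 24 h values went with abundance. Ranked by mean count, 20 of the 36 members fell among the 2382 most abundant genes, and there 8 of 20 were lower at 24 h (40.0%), against 23.4% of all those genes. At both times 0 of the 20 were higher, where 1.72% of all those genes were at 6 h and 2.98% at 24 h. The median difference was -0.54 for those members and -0.21 for all of those genes, whereas it was 0.23 over the 2382 least abundant measured genes. What part abundance had in the members' values was not tested. With the median of genes of like count (20 bins) subtracted, 9 members were lower at 24 h and not 11. GAPDH and ENO1 became -0.48 and -0.45, within 1.5-fold, while LDHA was -1.20, SLC16A3 -1.24, PGK1 -1.08 and ALDOA -0.77. At 6 h the same step left 5 members lower. Genes outside glucose metabolism that are often used as standards, some of them in the same range of counts, (13 genes) had medians of -0.11 and -0.35 at the 2 times. Of these standards 2 were lower at 6 h (15.4%) and 5 at 24 h (38.5%), a larger share at 24 h than the 30.6% of the members. The summed TPM of the members was 19974.5, 18225 and 14093 in tet-ZFP36L1 at 0, 6 and 24 h, against 19226, 17290 and 19826 in tet-control.

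**Figure D5:**
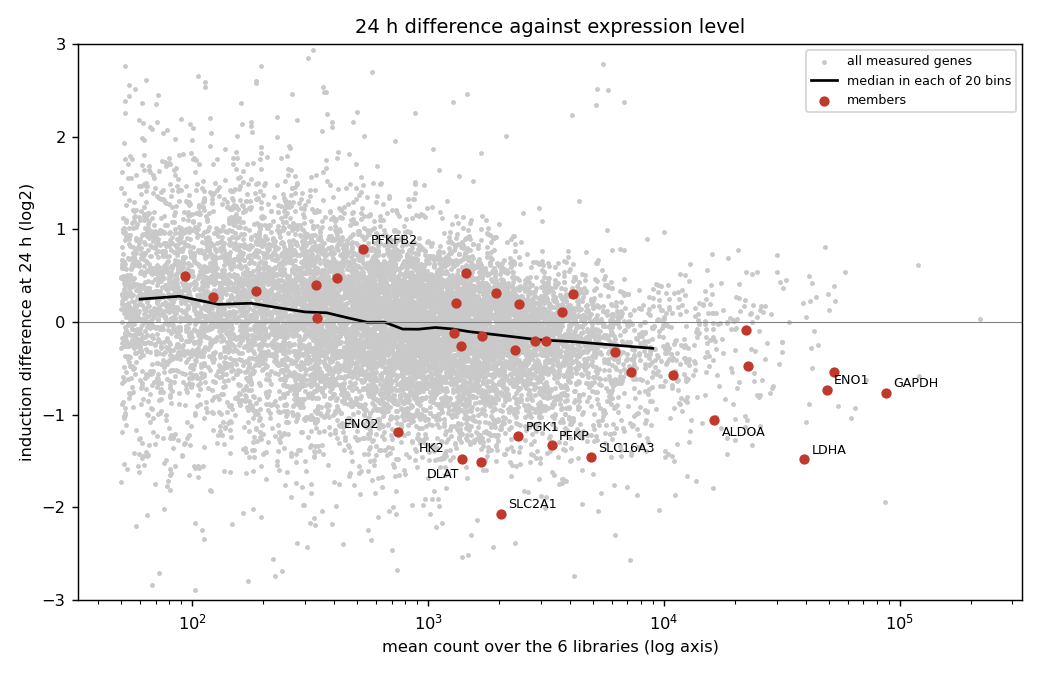
Induction difference at 24 h (log2, vertical axis) against mean count over the 6 libraries (log axis), for all measured genes (grey) and the 36 members (red), with the median in each of 20 bins of mean count as a black line. The line slopes down with abundance, and LDHA, SLC16A3 and SLC2A1 lie below it; 31 genes outside the vertical axis of 3 either way are not drawn.

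Of 41 further glucose transport and glycolysis genes 21 were measured, and at each time 5 were lower (23.8%) and 0 higher, with medians of -0.35 and -0.49. Of all measured genes 14.3% were lower at 6 h and 17.4% at 24 h, and 7.02% and 13.9% were higher. GPD2, the mitochondrial glycerol phosphate dehydrogenase that carries glycolytic electrons, gave -1.24 and -1.23, and BPGM, which makes 2,3-bisphosphoglycerate, gave -0.76 and -0.91. SLC2A10 gave -1.31 at 6 h and 0.14 at 24 h with a mean count of 62.3. Of 9 measured further genes of the pentose phosphate pathway, at 6 h 2 were lower (22.2%) and 1 higher (11.1%). At 24 h 3 were lower (33.3%) and 2 higher (22.2%). RPIA, the ribose 5-phosphate isomerase, gave -1.03 and -1.14, and H6PD of the endoplasmic reticulum gave -0.10 and 0.97.

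All 16 glycogen genes were measured, with 2 lower (12.5%) and 1 higher (6.25%) at 6 h, then 3 in each direction (18.75%) at 24 h. Of all measured genes 14.3% were lower at 6 h and 17.4% at 24 h, and 7.02% and 13.9% were higher. The branching enzyme GBE1 gave -0.63 and -1.33, and PPP1R3C, a glycogen-targeting subunit of protein phosphatase 1, gave 1.61 and 1.67 from a mean count of 85.7. In the tricarboxylic acid cycle list, at 6 h 2 of 22 genes were lower (9.09%) and 1 higher (4.55%). At 24 h 9 were lower (40.9%) and 0 higher, with a median of -0.39. IDH3A, a subunit of the NAD-dependent isocitrate dehydrogenase, gave -0.85 and -1.38, and ACLY, which turns exported citrate into acetyl-CoA, gave -0.49 and -1.40. In the serine and hexosamine list, at 6 h 3 of 11 were lower (27.3%) and 1 higher (9.09%). At 24 h 4 were lower (36.4%) and 0 higher. GFPT2 and GFPT1, the entry enzymes of the hexosamine pathway, gave -2.28 and -1.25 at 6 h and -1.76 and -1.48 at 24 h.

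Regulators of these genes were measured for 13 of 16, and 5 were lower at 6 h (38.5%) and 4 at 24 h (30.8%). At either time 0 were higher, and the medians were -0.47 and -0.19. Of all measured genes 14.3% were lower at 6 h and 17.4% at 24 h, and 7.02% and 13.9% were higher. EPAS1, which encodes HIF2A, had 128, 71.8 and 45.2 CPM in tet-ZFP36L1, against 10.9, 18.7 and 14.7 CPM in tet-control, and gave -1.58 and -1.91. HIF1A had 395, 250.035 and 162 CPM in tet-ZFP36L1, against 316, 356 and 299 CPM in tet-control, and gave -0.83 and -1.21. MLX, the partner of the glucose-sensing factors MondoA and ChREBP, gave -1.06 and -1.04, while MLXIP, which encodes MondoA, gave -0.06 and 0.56. The AMPK catalytic subunits PRKAA1 and PRKAA2 gave -0.71 each at 6 h and -1.02 and -0.37 at 24 h. MYC gave -0.47 and -0.08, ARNT -0.36 and -0.09, and ESRRA -0.52 and -0.38. EGLN1 and VHL, which limit HIF, gave -0.24 and 0.18 at 6 h and -0.19 and 0.21 at 24 h, and ARRDC4, a target of MondoA, gave 0.48 and 0.30.

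Promoters were searched for ACGTG on either strand in RefSeq sequences from 250 bases before to 50 bases after the start site (GRCh38.p14). ACGTG is a form of the core of the hypoxia response element, and the other form, GCGTG, is not counted here. Where the table lists several start sites for a gene, the one nearest the 5′ end of the transcript used for the 3′ UTR was taken. The start site lay 308 bases from that end for SLC2A1, 450 for PFKP, 510 for GAPDH, 1658 for PGAM1 and 11655 for PDHA1. For these genes that end fell outside the window, so presence or absence of the word may not describe the promoter in use. On the strand of the gene the reverse match reads CACGT, and CACGTG counts in both forms. Of 37 members 34 had a promoter in the table and 14 of these held the word (41.2%), against 27.3% of 9092 promoters of measured genes. It was present in 3 of 5 members lower at 6 h (60.0%), in 5 of 6 lower at 24 h and not at 6 h (83.3%), and in 5 of 22 lower at neither time (22.7%), and ALDOC, below the count minimum, held it as well. The shares over all measured genes of these same classes were not computed, so the members' shares have no matching background here. The windows below come from genes lower at 24 h, with the word in capitals on the strand of the gene, and a match in these letters does not show that a factor binds there.
LDHA, chr11:18394368-18394392: actcccagcgCACGTggagcagtct
PGK1, chrX:78104036-78104060: ggcgtgccggACGTGacaaacggaa
ALDOA, chr16:30065552-30065576: tggtccgagtCACGTccgagggggg
GAPDH, chr12:6535173-6535197: tctgcggggtCACGTgtcgcagagg
SLC16A3, chr17:82228964-82228988: ccaggcggtgACGTGcgcgggggac
ENO2, chr12:6914452-6914476: ccgcgctcgtACGTGcgcctccgcc
HK2, chr2:74833888-74833912: ccacggaccaCACGTcccatctcag

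The 5 genes lower at 24 h and not at 6 h that held ACGTG in the promoter were LDHA, GAPDH, ALDOA, PGK1 and SLC16A3, and of these PGK1 and SLC16A3 also held TATTTAT in the 3′ UTR searched. ENO1, the other gene of that group, held neither word. HK2, ENO2 and DLAT, lower at both times, held both words. SLC2A1 held the 3′ UTR word and no ACGTG in the window, and PFKP held neither, though for both the window missed the 5′ end of the transcript used. The window of GAPDH missed that end as well, so its match may not describe the promoter in use. The members lower at neither time with ACGTG in the promoter were PGD, PDK1, PDHB, GPI and PDK3, so this word too was found in genes that stayed within 1.5-fold.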

How the data were processed

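Per the labels' protocols, total RNA of J82 cells was taken with a column kit and libraries followed BGISEQ-500 protocols, 1 for each of 6 groups. Tools listed in the submitters' processing notes are kallisto and DESeq2, with the build hg19 and no versions. The sources used here do not give the read strand. The deposited tables hold, per the file headers, the authors' estimated counts, which need not be whole, and TPM for each transcript, also made by the authors before deposit. Of 196354 listed transcripts 181857 were matched by identifier to GENCODE 29 (GRCh38), and 14497 unmatched ones, with 5.12% to 5.46% of the counts, were left out.

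Counts were summed per gene and rounded. Libraries were scaled by TMM (edgeR 4.0.16, R 4.3.3) over genes with a mean count of 10 or more, and levels were taken as log2(CPM + 0.5), which understates changes of low genes. Genes with a mean count of 50 or more were called measured. Levels of different genes were compared by the summed TPM. With 1 library per group the contrast at each time leaves no residual degrees of freedom, and no count test was made. A gene was called at 1.5-fold, and 95% intervals by the delta method cover counting error alone, and the labels name no molecular identifiers. The arithmetic was checked on simulated data.

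Sequences of 3′ UTRs come from GENCODE 29, from the coding transcript of highest TPM per gene, and promoters from RefSeq. Shared 31-base words between transcripts mark genes whose counts could be split with others. The members and lists were chosen with earlier results of these data known. All members are named by role, with values in every library for those past 1.5-fold and for paralogs, at most 2 genes each way of other lists, and every measured regulator but 1, which is not reported here. Alternatives were DESeq2 1.42.0 size factors, plain CPM, TPM, count minimums of 10 and 200, pseudocounts of 0.1 and 5, a fold of 2, medians of 20 count bins subtracted, named pseudogenes added and coding transcripts alone.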

Additional observations from a re-analysis of the deposited data

Results flagged for a closer look

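HK2 moved in opposite ways in the lines at 6 h. It had 78.0 CPM at 0 h and 46.9 CPM at 6 h of doxycycline in tet-ZFP36L1, a log2 change of -0.73, and 60.3 CPM and 143 CPM in tet-control, a log2 change of 1.24. The induction difference of -1.97 is the sum of both moves. Each line and time has 1 library, so this difference was not tested. No other of the 36 measured members moved by at least 1.5-fold in both lines in opposite directions, at 6 or at 24 h.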

How the results depend on the processing

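The number of members lower ranged over the alternatives from 5 to 7 at 6 h and from 9 to 12 at 24 h, where 5 and 11 were reported. Each member called at 1.5-fold stayed past it in 10 of 10 alternatives other than the fold of 2, with these exceptions. PFKFB2 at 24 h (0.55 with deposited TPM) and GAPDH at 24 h (-0.48 with bin medians subtracted) fell within 1.5-fold. ENO1 at 24 h did so with plain CPM (-0.56) and with bin medians subtracted (-0.45). The changed count minimums are among the 10, but they only choose the genes kept and could not move a gene's own value. Adding named pseudogenes likewise could not move SLC2A1, PFKP, PFKFB2, ENO2, SLC16A3 and DLAT, which have none. Those outcomes were fixed in advance and say nothing on stability. No called value changed sign. The number higher at 24 h, 1 as reported, was 4 with plain CPM, 2 each with deposited TPM, a pseudocount of 0.1 and bin medians subtracted, and 0 at a fold of 2. The members' median at 24 h, -0.23 as reported, was -0.062 with plain CPM, -0.045 with bin medians subtracted and -0.42 with coding transcripts alone. The members' median difference between lines at 0 h was -0.094 with the main settings and 0.0077 with deposited TPM. With plain CPM and deposited TPM the median over all measured genes at 24 h was 0.15 and 0.10, against -0.02 with TMM and -0.03 with DESeq2 size factors.

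Leaving out 0 h or tet-control was added after seeing the data. Within tet-ZFP36L1 alone, 10 members were lower at 6 h (27.8%, against 15.6% of all measured genes), the median at 6 h was -0.18, and 2 were higher at 24 h (5.56%, against 11.8%). Between lines at the same time, 3 members were higher at 6 h (8.33%, against 12.4%), 5 higher at 24 h (13.9%, against 18.3%) and 13 lower at 24 h (36.1%, against 20.3%), and the median at 24 h was -0.42. The cause of these moves was not tested. No paired analysis was possible because each group has 1 library and the labels give no replicate numbers. Leaving out a replicate was likewise not possible. Depth limits SLC2A3, with 2 to 10 counts in tet-control, and MPC1.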
